A study of Homo sapiens with 6 samples.

Results

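The miR-17-92 cluster and its paralogs are a set of short RNA genes on 3 human chromosomes whose mature miRNAs fall into a few seed families. Their levels were read in 6 libraries of the human cell line RMUG-S-ip1, which derives from a mucinous ovarian cancer. Members were all probes that the deposited table names as miR-17, miR-18a, miR-18b, miR-19a, miR-19b, miR-20a, miR-20b, miR-25, miR-92a, miR-92b, miR-93, miR-106a or miR-106b. A probe shared by 2 miRNAs was counted once. The rule found 11 of these 13 miRNAs on 9 probes, out of 177 named miRNAs and 800 human miRNA rows. miR-18b and miR-92b were not among the named rows and were not analysed here. The 9 probes were those of miR-106a-5p/miR-17-5p, miR-20a-5p/miR-20b-5p, miR-93-5p, miR-106b-5p, miR-18a-5p, miR-19a-3p, miR-19b-3p, miR-25-3p and miR-92a-3p.

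The libraries were made with the NanoString nCounter miRNA assay, which counts colour-coded reporters bound to each miRNA, from 100 ng of total RNA per sample. In 3 of them the cells had received a control siRNA and in 3 an siRNA against PRKRA (siPRKRA), both with the lipid reagent RNAiMAX. PRKRA is the gene of PACT, which binds double-stranded RNA and partners Dicer, the enzyme that cuts miRNA hairpins into mature miRNAs, and the comparison asks how miRNA levels differ once it is silenced. How far PRKRA was silenced was not analysed here, and the labels do not say whether replicates were separate cultures. The p-values thus rest on differences among these 6 samples alone, some or all of which may be technical. The libraries are bulk RNA, in which fewer cells holding a miRNA and less of it per cell cannot be told apart.

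The 3 clusters arose from copies of one ancestral cluster and each is transcribed as a single long primary RNA, from which the hairpins are cut by Drosha and then by Dicer. The miR-17-92 cluster, often called oncomiR-1, is activated by MYC and amplified in some lymphomas, and the miR-106b-25 cluster is transcribed together with its host gene MCM7, a replication factor driven by E2F. Bases 2 to 8 of a mature miRNA, the seed, pair with target mRNAs. The miR-17 seed family represses E2F1 and the cell cycle inhibitor CDKN1A, and the miR-25 and miR-92 family represses the cell death protein BIM.

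In the RefSeq annotation of GRCh38.p14 the 17-92 cluster lies at chr13:91350605-91351391 on the plus strand, where 6 hairpins span 787 bases inside the noncoding host gene MIR17HG. The miR-106a-363 cluster lies at chrX:134169378-134170278 on the minus strand, with 6 hairpins over 901 bases inside MIR106AHG. The miR-106b-25 cluster lies at chr7:100093560-100094074 on the minus strand, with 3 hairpins over 515 bases within MCM7. The sequences below are the mature miRNAs of RefSeq, and all 11 member names had one. They are printed because the groups compared are defined by the seed, which is in capitals, and because the letters outside the seed differ between probes whose values differed. The first 6 share the seed AAAGUGC, the next carries AAGGUGC, then a pair carries GUGCAAA, and the last 3 carry AUUGCAC. miR-32-5p is not a member, lies on chromosome 9 within TMEM245, and is shown for its seed.
miR-17-5p: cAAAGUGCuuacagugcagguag
miR-106a-5p: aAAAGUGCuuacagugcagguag
miR-20a-5p: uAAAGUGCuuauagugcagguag
miR-20b-5p: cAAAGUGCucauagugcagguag
miR-93-5p: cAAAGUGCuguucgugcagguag
miR-106b-5p: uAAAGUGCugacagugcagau
miR-18a-5p: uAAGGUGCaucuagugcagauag
miR-19a-3p: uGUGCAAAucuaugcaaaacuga
miR-19b-3p: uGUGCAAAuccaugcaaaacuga
miR-25-3p: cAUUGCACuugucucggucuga
miR-92a-3p: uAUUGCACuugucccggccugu
miR-32-5p: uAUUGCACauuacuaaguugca
Counted from the 5′ end, miR-17-5p and miR-106a-5p differ by C1A, and miR-20a-5p and miR-20b-5p by U1C and U10C, and 1 probe reads both members of each pair. miR-19a-3p and miR-19b-3p differ by U11C and have separate probes. The shared probes cannot separate the 17-92 cluster from the miR-106a-363 cluster, and miR-19b-3p and miR-92a-3p are encoded in both.

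The deposited values are counts above a background multiplied by 1 factor per library, and the factors spanned a 6.61-fold range. Before scaling, the 800 miRNA rows summed to between 51641 and 56192 counts above background in control siRNA libraries and to between 142684 and 305261 in siPRKRA libraries. In siPRKRA replicate 2 the deposited value of miR-4454 was 155810, against 2331 to 5350 in the other libraries. That of miR-720 was 23707, against 542 to 1367. With a factor of 1.09, most of that library's total of 228547 counts came from these rows. Over the tested miRNAs, the log2 values of siPRKRA replicate 2 correlated with those of the other 5 libraries at 0.833 to 0.884. Control libraries correlated at 0.964 to 0.966 among themselves and at 0.882 to 0.954 with siPRKRA replicates 1 and 3. Those replicates correlated with each other at 0.985. The ranges thus met at their ends, but each other library correlated least with siPRKRA replicate 2, which stood apart in this sense. No pair of libraries agreed within counting noise, so all 6 were counted separately. The 6 epithelial markers, all named in the files, had a summed value of 8540 to 9753 with the control siRNA and of 7074 to 7810 with siPRKRA, and of the 4 that were tested 0 passed. miR-200c-3p was high in all libraries, between 4001 and 6410, and miR-205-5p between 2293 and 2815, while miR-200a-3p and miR-429 read no more than 1.53 with the control siRNA and reached 17.2 and 6.55 with siPRKRA. Of 7 blood markers only miR-155-5p and miR-144-3p are named in the files, and their summed value ranged from 16.6 to 235 in control siRNA libraries and from 16.5 to 58.6 in siPRKRA libraries. The endothelial miR-126-3p summed to 214 to 229 and 161 to 216, and the fibroblast, smooth muscle and muscle markers are not named in the files. The part of these marker differences in the results was not tested.

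None of the 8 tested members passed the test for a difference between siPRKRA and control siRNA libraries. The estimates for the probes with the miR-17 and miR-19 seeds lay below 0, from -0.17 for miR-106a-5p/miR-17-5p to -0.68 for miR-19b-3p on the log2 scale, and those of miR-25-3p and miR-92a-3p lay near 0. For each of the 6 probes with those seeds, siPRKRA replicate 2 was the siPRKRA library furthest from the control mean. A miRNA was tested where 3 or more of the 6 libraries had a value of 30 or above, which held for 8 members and 98 other miRNAs. The call was an adjusted p (Benjamini-Hochberg) under 0.05 in limma, a moderated linear model fitted to log2(value + 1) over the whole table. miR-18a-5p was the member below the limit. Over all tested miRNAs, 0 were called, 0% of them, and 17 or 16.0% had an unadjusted p under 0.05, of which 9 were lower and 8 higher with siPRKRA. Of the 8 tested members, 0 had an unadjusted p under 0.05. The estimate was below 0 for 7 of the 8 members and for 58.5% of all tested miRNAs. Their median log2 fold change was -0.34, beside -0.06 over all tested miRNAs.

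**Figure D1:**
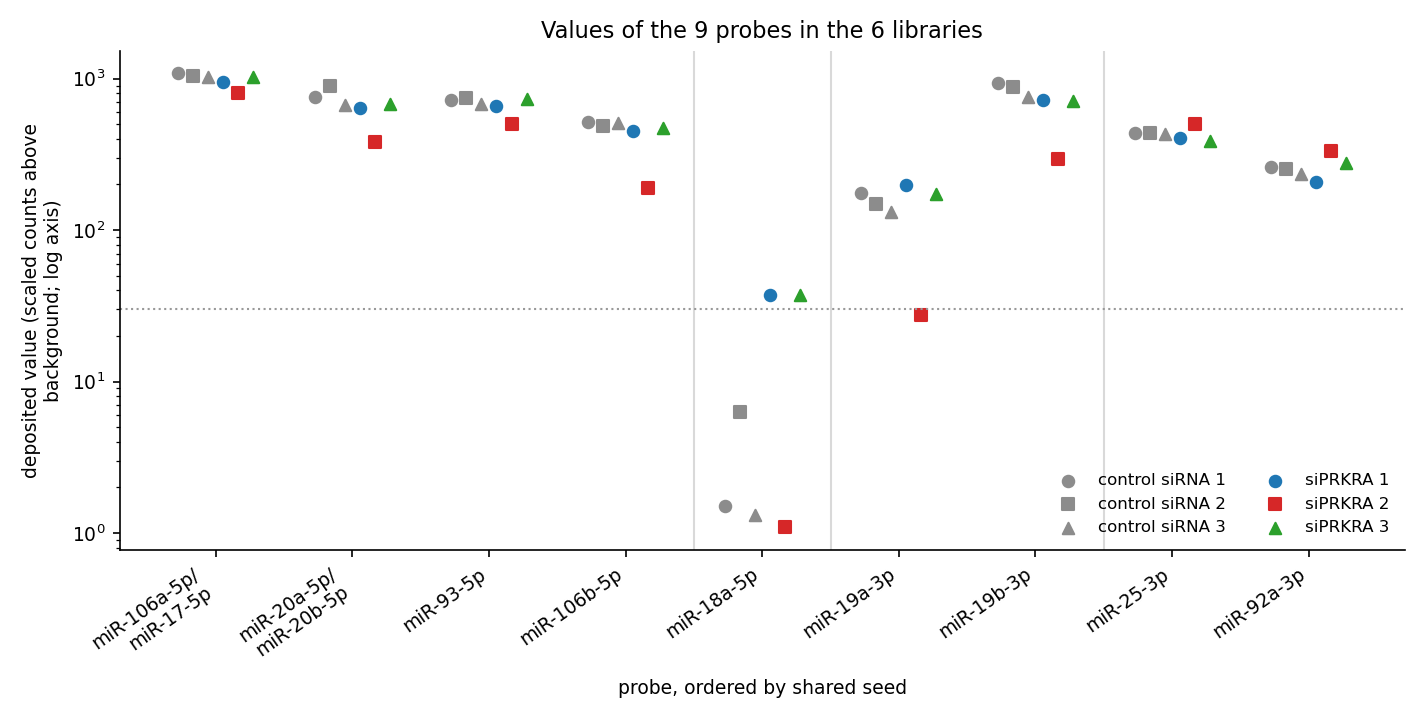
Deposited values (scaled counts above background, log axis) of the 9 probes, with grey symbols for the 3 control siRNA libraries and coloured symbols for the 3 siPRKRA libraries; the dotted line marks 30. siPRKRA replicate 2 (red squares) is the lowest library for the 6 tested probes with the miR-17 or miR-19 seed and the highest for miR-25-3p and miR-92a-3p.

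The shared probe of miR-106a-5p/miR-17-5p, the founders of the family, read 1081, 1034 and 1019.7 in control siRNA replicates 1, 2 and 3 and 954, 809 and 1032 in siPRKRA replicates 1, 2 and 3. siPRKRA replicates 1 and 2 were below every control library and replicate 3 was within them, so the groups overlapped. The group means were 1045 ± 32.2 (SD, n = 3) and 932 ± 113 (SD, n = 3), and the log2 fold change was -0.17 ± 0.12 (SE) with a limma adjusted p of 0.425. The 95% interval of that change ran from -0.46 to 0.11. Without siPRKRA replicate 2 the estimate was -0.07 ± 0.07 (SE), limma adjusted p 0.513.

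The shared probe of miR-20a-5p/miR-20b-5p, regulators of E2F1, read 758, 891 and 671 in control siRNA replicates 1 to 3 and 643, 379 and 679 in siPRKRA replicates 1 to 3. Here too siPRKRA replicate 3 was inside the control range and the other two were below it. The means were 774 ± 111 (SD, n = 3) and 567 ± 164 (SD, n = 3). The log2 fold change was -0.48 ± 0.25 (SE), limma adjusted p 0.331, with an interval from -1.09 to 0.12. Without siPRKRA replicate 2 it was -0.22 ± 0.12 (SE), limma adjusted p 0.267.

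miR-93-5p, from the miR-106b-25 cluster, read 722, 746 and 682 in control siRNA libraries and 659, 501 and 732 in siPRKRA replicates 1 to 3. Again the third siPRKRA library lay within the control range and the groups overlapped. Its log2 fold change was -0.20 ± 0.16 (SE), limma adjusted p 0.475, with an interval from -0.58 to 0.18, and it was -0.04 ± 0.08 (SE), limma adjusted p 0.689, without siPRKRA replicate 2.

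miR-106b-5p, encoded beside miR-93-5p and a repressor of CDKN1A, was the member of this seed family whose groups did not overlap. It read 521, 484 and 512 with the control siRNA and 449, 190.1 and 468 with siPRKRA. All 3 siPRKRA libraries were lower, but replicates 1 and 3 by far less than replicate 2. The means were 505 ± 19.3 (SD, n = 3) and 369 ± 155 (SD, n = 3), and the log2 fold change was -0.56 ± 0.35 (SE) with a limma adjusted p of 0.410 and an interval from -1.42 to 0.30. Without siPRKRA replicate 2 the change was -0.14 ± 0.07 (SE), limma adjusted p 0.256.

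miR-18a-5p, the member of the 17-92 cluster with a seed of its own, was near the floor in 4 of the 6 libraries. It read 1.5, 6.27 and 1.32 in control siRNA replicates 1 to 3 and 37.5, 1.09 and 37.5 in siPRKRA replicates 1 to 3. Before scaling, these rested on 162 and 79.9 counts above background in siPRKRA replicates 1 and 3, on 4.11 counts in control replicate 2 and on the floor of 1 count in the remaining libraries. At the factors used, a value of 37.5 would have been 24.6 to 28.5 counts in a control library and 34.5 in siPRKRA replicate 2. The siPRKRA libraries therefore disagreed among themselves, with replicates 1 and 3 above every control library and replicate 2 at the floor, and the probe was not tested. In the authors' deposited table its log2 level is 0.58 for control siRNA and 5.23 for siPRKRA, with a p-value of 0.658 and an adjusted value of 0.856.

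miR-19a-3p, which with miR-19b-3p accounts for much of the oncogenic activity of the cluster in mouse lymphoma, had the widest spread among the tested members. It read 175, 149.7 and 132 with the control siRNA and 197, 27.3 and 172 with siPRKRA. The first siPRKRA library was above every control library, the second was below them all and the third was between them. The means were 152 ± 21.7 (SD, n = 3) and 132 ± 91.6 (SD, n = 3). The value of 27.3 rested on 25.2 counts above background, against 98.1 to 117 counts in the control libraries. The log2 fold change was -0.62 ± 0.75 (SE), limma adjusted p 0.671, with an interval from -2.44 to 1.20, and without siPRKRA replicate 2 it was 0.28 ± 0.16 (SE), limma adjusted p 0.267.

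miR-19b-3p, which differs from miR-19a-3p by the single base given above, was the second member whose groups did not overlap. It read 930.4, 880.4 and 757 with the control siRNA and 725, 295 and 709 with siPRKRA. Each siPRKRA library lay below the lowest control library, replicates 1 and 3 only just. The means were 856 ± 89.4 (SD, n = 3) and 576 ± 243 (SD, n = 3), and the log2 fold change was -0.68 ± 0.36 (SE), limma adjusted p 0.352, with an interval from -1.55 to 0.20. Without siPRKRA replicate 2 it was -0.25 ± 0.10 (SE) with an interval from -0.49 to -0.0077, which excluded 0 (limma unadjusted p 0.0449, adjusted p 0.170). In the authors' deposited table the log2 levels of this probe are 9.78 and 9.47, a difference of -0.31, which is less than that of the means since those levels equal the middle library of each group.

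miR-25-3p, the third miRNA of the MCM7 intron cluster, read 435, 438 and 433 with the control siRNA and 404, 505 and 387 with siPRKRA. siPRKRA replicates 1 and 3 were below the narrow control range and replicate 2 was above it. Its log2 fold change was -0.02 ± 0.13 (SE), limma adjusted p 0.949, and -0.14 ± 0.07 (SE), limma adjusted p 0.243, without siPRKRA replicate 2, when the groups no longer overlapped.

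miR-92a-3p, known for restraining vessel growth through integrin subunit alpha 5, read 259, 253 and 235 with the control siRNA and 208, 332 and 278 with siPRKRA. One siPRKRA library was below the control range and the remaining pair was above it. Its log2 fold change was 0.11 ± 0.19 (SE), limma adjusted p 0.804, and -0.05 ± 0.14 (SE), limma adjusted p 0.80, without siPRKRA replicate 2.

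The siPRKRA values thus lay wholly below the control values for 2 of 8 tested members, miR-106b-5p and miR-19b-3p, and wholly above for 0 of 8. Over all tested miRNAs the share lower in this way was 15.1% and the share higher was 12.3%, and the 2 members were not read as a result beyond that background. Without siPRKRA replicate 2, the groups were apart and lower for 3 members, miR-106b-5p, miR-19b-3p and miR-25-3p, beside 26.4% of all tested miRNAs. The median log2 fold change of the members was then -0.11, beside -0.07 over all tested miRNAs, and the members' adjusted p ran from 0.170 to 0.80. In the authors' deposited table the adjusted values of the 9 probes run from 0.452 to 0.944.

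**Figure D2:**
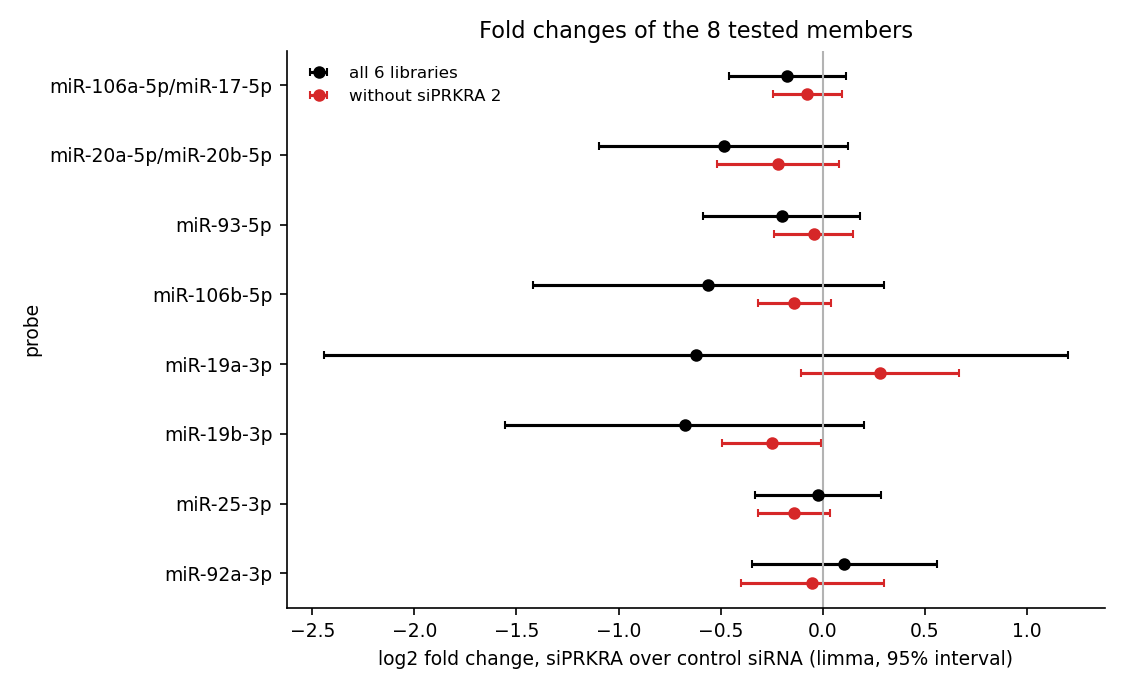
Log2 fold change of siPRKRA over control siRNA for the 8 tested members with its 95% interval from limma, over all 6 libraries (black) and without siPRKRA replicate 2 (red). Over all libraries every interval includes 0; the interval of miR-19a-3p, -2.44 to 1.20, is the widest and its estimate changes sign without that library. Without it, the interval of miR-19b-3p, -0.49 to -0.0077, excludes 0.

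siPRKRA replicate 2 was the lowest of the 6 libraries for 6 of 8 tested members and the highest for the remaining 2. Over all tested miRNAs it was the lowest for 34.9% and the highest for 29.2%. Its log2 difference from the control mean was -2.43 for miR-19a-3p, -1.53 for miR-19b-3p, -1.41 for miR-106b-5p, -1.02 for miR-20a-5p/miR-20b-5p, -0.52 for miR-93-5p and -0.37 for miR-106a-5p/miR-17-5p. For miR-25-3p it was 0.21 and for miR-92a-3p 0.42. In siPRKRA replicates 1 and 3 the differences were -0.23 and -0.27 for miR-19b-3p, -0.17 and -0.11 for miR-106b-5p and -0.26 and -0.18 for miR-20a-5p/miR-20b-5p. Those of miR-19a-3p, 0.38 and 0.18, were opposite in sign to that in replicate 2. For miR-92a-3p they were -0.26 and 0.16 and for miR-25-3p -0.11 and -0.17. Each was smaller in size than that of the same probe in replicate 2, 0.42 and 0.21 in that order.

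The members were also set against their base composition. Guanine and cytosine made up 34.8% of miR-19a-3p, 39.1% of miR-19b-3p, 42.9% of miR-106b-5p, 43.5% of miR-20a-5p/miR-20b-5p, 45.7% of miR-106a-5p/miR-17-5p, 50% of miR-25-3p, 52.2% of miR-93-5p and 54.5% of miR-92a-3p, where a shared probe was given the mean of its miRNAs. In siPRKRA replicate 2 the difference was lowest for the member with the least guanine and cytosine and highest for the member with the most, but miR-93-5p lay below the control mean and below both miR-106a-5p/miR-17-5p and miR-25-3p, which hold less. Across the 8 tested members the Pearson correlation of this percentage with the log2 difference was 0.93 in siPRKRA replicate 2, beside -0.56 in replicate 1 and 0.16 in replicate 3. For the same members it was -0.695, 0.08 and 0.53 in control siRNA replicates 1 to 3, each set against the other control libraries. These points share libraries, scaling factors, seeds and stretches of sequence, and the correlations are descriptions. Across the 85 tested non-members with a sequence the correlation was 0.50 in siPRKRA replicate 2, 0.05 in replicate 1 and 0.22 in replicate 3, and for each control library against the other pair it lay between -0.20 and 0.11. By rank (Spearman) it was 0.39 in siPRKRA replicate 2, -0.08 in replicate 1 and 0.24 in replicate 3.

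Grouped by composition, the 20 tested non-members with less than 40% guanine and cytosine had a median log2 difference of -0.28 in siPRKRA replicate 2, the 38 between 40% and 50% had -0.11, and the 27 at 50% or more had 0.24. All 6 tested probes with the miR-17 or miR-19 seed were further below the control mean in that library than the median of the group with their composition. miR-32-5p has the seed of miR-25-3p and miR-92a-3p but only 31.8% guanine and cytosine. It read 540, 583 and 453 with the control siRNA and 446, 239 and 489.9 with siPRKRA, a log2 difference of -1.13 in siPRKRA replicate 2, while those of miR-25-3p and miR-92a-3p were above 0. Other tested non-members with 31.8% guanine and cytosine differed in sign in that library. miR-365a-3p had 0.40 and let-7f-5p 0.18, while miR-374b-5p had -0.75 and miR-450a-5p -0.10. What sets these values in siPRKRA replicate 2 was not tested.

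**Figure D3:**
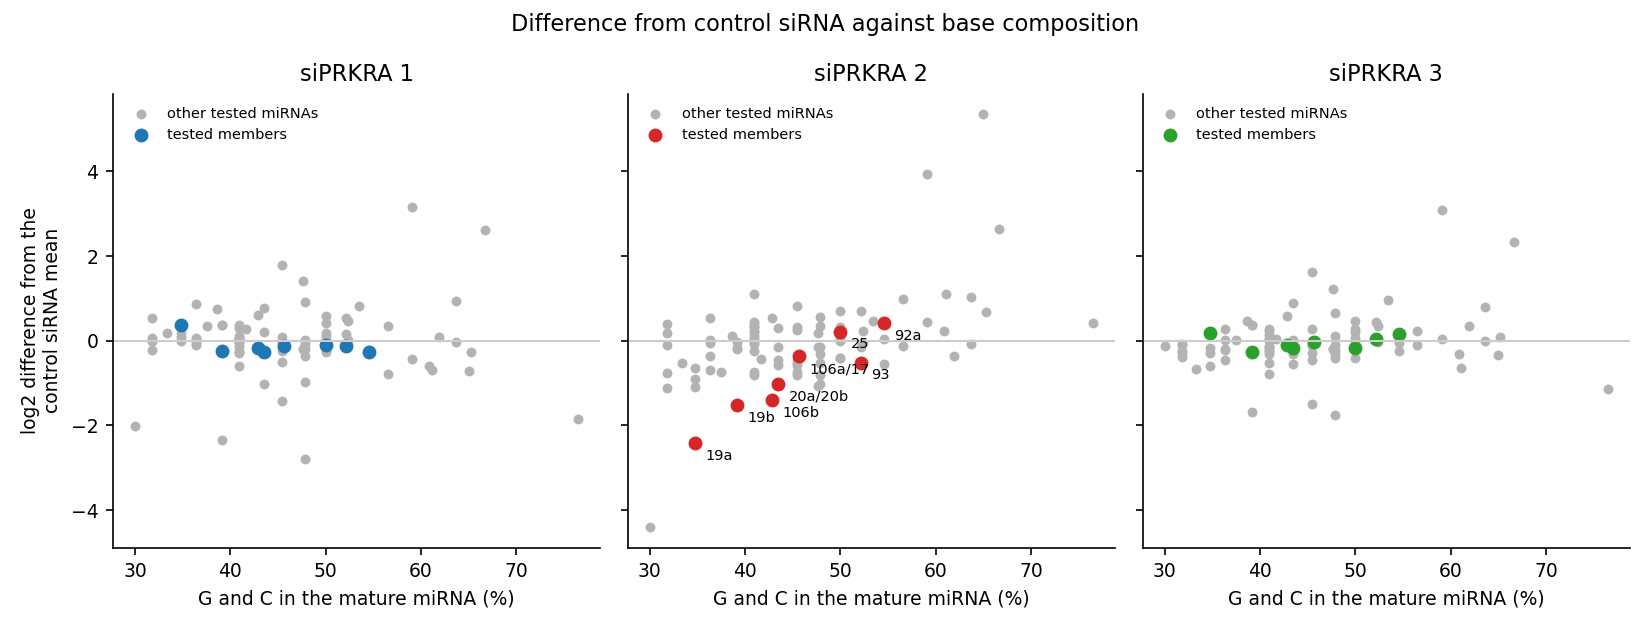
Log2 difference of each siPRKRA library from the control siRNA mean against the percentage of guanine and cytosine in the mature miRNA, 1 panel per library, with the 8 tested members in colour and the 85 other tested miRNAs with a sequence in grey. In siPRKRA replicate 2 the members run from -2.43 at 34.8% to 0.42 at 54.5%, while in replicate 1 they run from -0.26 to 0.38 and in replicate 3 from -0.27 to 0.18.

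Ratios within a library do not depend on its scaling factor, apart from the pseudocount. The mean log2 level of the 2 miR-19 seed probes minus that of the 4 miR-17 seed probes was -0.88, -1.06 and -1.14 in control siRNA replicates 1 to 3 and -0.79, -2.18 and -1.0 in siPRKRA replicates 1 to 3. Only siPRKRA replicate 2 was below the control range, and the groups overlapped. The difference between group means was -0.29 with all libraries, and 0.13 without siPRKRA replicate 2.

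The miR-25 and miR-92 seed probes were set against the miR-17 seed probes after their values were seen. Their mean log2 difference was -1.15, -1.19 and -1.13 with the control siRNA and -1.17, -0.01 and -1.09 with siPRKRA. In 5 of the 6 libraries the ratio of these families thus lay within 0.1 of -1.15 on the log2 scale, and siPRKRA replicate 2 stood alone above them. Inside the miR-25 and miR-92 family it did not stand apart. There, miR-92a-3p minus miR-25-3p was -0.75, -0.79 and -0.88 with the control siRNA and -0.95, -0.60 and -0.48 with siPRKRA.

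miRNAs cut from one primary RNA were compared in the same way. In the miR-106b-25 cluster the log2 level of miR-106b-5p minus that of miR-25-3p was 0.26, 0.14 and 0.24 with the control siRNA and 0.15, -1.40 and 0.28 with siPRKRA. miR-106b-5p minus miR-93-5p was -0.47, -0.62 and -0.41 with the control siRNA and -0.55, -1.39 and -0.64 with siPRKRA. Apart from siPRKRA replicate 2, each of these ratios kept to a range of 0.23 log2 units or less. The remaining pair of the cluster, miR-93-5p and miR-25-3p, was not compared in this way.

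In the 17-92 cluster, miR-19a-3p minus miR-92a-3p was -0.56, -0.76 and -0.82 with the control siRNA and -0.08, -3.56 and -0.69 with siPRKRA, though miR-92a-3p also comes from the X chromosome. miR-19a-3p minus miR-19b-3p was -2.40, -2.55 and -2.51 with the control siRNA and -1.87, -3.39 and -2.04 with siPRKRA. Here siPRKRA replicates 1 and 3 were both above the control range, by an average of 0.53 over the control mean, and replicate 2 was below it.

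Between clusters, the mean log2 level of the 3 probes of the miR-106b-25 cluster minus that of the 5 tested probes of the 17-92 and miR-106a-363 clusters was 0.10, 0.12 and 0.28 with the control siRNA. With siPRKRA it was 0.13, 0.58 and 0.11. The group means differed by 0.11, less than the SD of 0.27 among siPRKRA libraries, and by -0.05 without siPRKRA replicate 2. Set against the control libraries, the mean log2 level of the miR-106b-25 probes was 9.10, 9.08 and 9.06 with the control siRNA and 8.95, 8.51 and 8.997 with siPRKRA, lower in all 3 siPRKRA libraries. That of the 17-92 and miR-106a-363 probes was 8.999, 8.965 and 8.78 with the control siRNA and 8.81, 7.93 and 8.89 with siPRKRA, and the groups overlapped. The group means differed by -0.26 and -0.37, and by -0.11 and -0.06 without siPRKRA replicate 2. The difference between clusters, given above within each library, overlapped between groups.

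**Figure D4:**
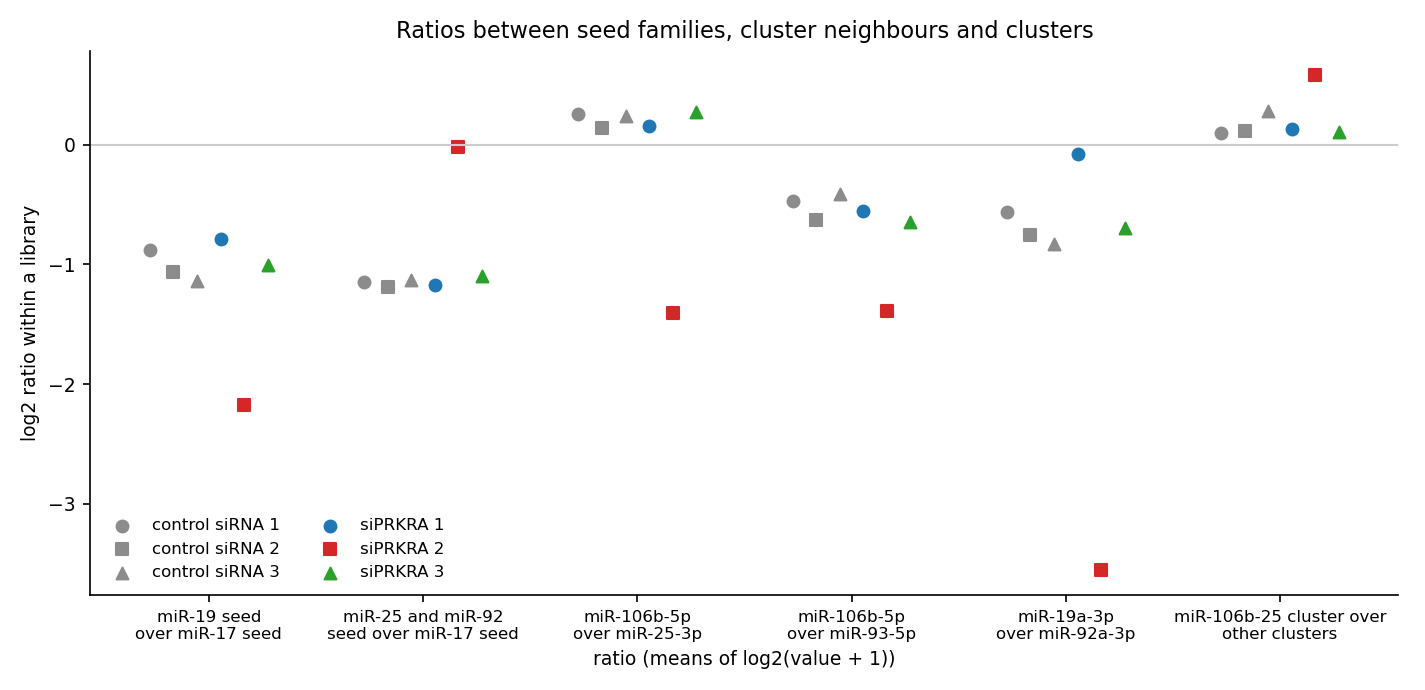
Log2 ratios within each library between seed families, between miRNAs of one cluster and between clusters, with control siRNA libraries in grey and siPRKRA libraries in colour. siPRKRA replicate 2 lies outside the range of the other 5 libraries in all 6 ratios shown, from -3.56 for miR-19a-3p over miR-92a-3p to 0.58 for the miR-106b-25 cluster over the other clusters. The ratio of miR-92a-3p to miR-25-3p, where it lies inside that range, is not shown.

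The 3 tested non-members whose log2 levels over the 6 libraries were most like the mean of the tested members were miR-32-5p, miR-27b-3p and miR-29c-3p, with Pearson correlations of 0.988, 0.985 and 0.982. Each had its lowest value in siPRKRA replicate 2: miR-27b-3p read 222 there and 409 to 514 elsewhere, and miR-29c-3p read 57.7 there and 88.6 to 98.8 elsewhere. How alike these non-members were to the members without that library was not examined. Among the members themselves, each of the 6 tested probes with the miR-17 or miR-19 seed correlated with the mean of the other tested members at 0.90 to 0.99, while miR-25-3p and miR-92a-3p did so at -0.78 and -0.73. Without siPRKRA replicate 2 the value for miR-25-3p was 0.40, that for miR-92a-3p 0.43 and that for miR-19a-3p -0.38, and those for the other members 0.40 to 0.81, so the signs for these 3 rest on 1 library.

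miR-363-3p, the last hairpin of the miR-106a-363 cluster and a carrier of the seed AUUGCAC, was at the floor in 5 libraries and read 36.1 in siPRKRA replicate 1. miR-519d, a placental miRNA related to the miR-17 family and named in the files without its arm, read no more than 6.99 in 5 libraries and 25.1 in siPRKRA replicate 2. miR-526b-5p, which was not found to carry a member's seed, read no more than 4.24 in any library. Of 12 miRNAs that MYC is known to repress, the opposite of its effect on the 17-92 cluster, all were tested and 0 passed, with 4 estimates above and 8 below 0. Their median log2 fold change was -0.09, beside -0.06 over all tested miRNAs. The 3 highest of them were let-7a-5p, miR-29b-3p and let-7g-5p. let-7a-5p, of the tumour suppressor let-7 family, stood at a log2 change of -0.01 ± 0.26 (SE) by limma (adjusted p 0.971). miR-29b-3p, a repressor of collagen genes, had -0.36 ± 0.25 (SE), limma adjusted p 0.425, and was lowest in siPRKRA replicate 2 at 2242, where the others read 3733 to 4524. let-7g-5p had -0.09 ± 0.11 (SE), limma adjusted p 0.672.

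The direction of these estimates is relative to the authors' scaling factors. Scaled by 5 graded control rows of the assay instead, the median over all tested miRNAs was 1.61 and all 8 tested members were above 0, from 0.99 to 1.77, with 0 members called. Scaled by the 5 mRNA rows, the median over all tested miRNAs was -0.62 and the members ran from -1.23 to -0.45, also with 0 called.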

How the data were processed

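The authors deposited a signal per probe and library and, for the 800 miRNA rows, log2 of the same signal, which matched within 0.000234. The authors' deposited table for 177 named miRNAs holds a p-value, an adjusted p-value and log2 levels. The remaining 623 rows carry no name. The sources used here do not give the software, the background rule or the scaling rule. Division by 1 recovered factor per library gave whole counts above background, within 0.1, for 100% of values checked; low values sit at a floor.

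Members were found by name and read by accession. A limma model (version 3.58.1, R 4.3.3; moderated with a mean-variance trend, two-sided) was fitted to log2(value + 1), a scale that understates changes of low values, over miRNAs that reached 30 in 3 or more libraries (8 members, 98 others), and p-values were adjusted over all of them. The fit was tested on simulated data with the same spread for all miRNAs and no outlying library. That test does not show how the fit handles a library such as siPRKRA replicate 2. Seeds and base composition came from RefSeq, matched by exact name for 93 of the tested miRNAs (87.7%). The members, the lists and the tests were chosen with earlier results of these data known. Named miRNAs were the members, seed relatives, the 3 most alike non-members, MYC-repressed miRNAs that passed and the 3 highest of that list, and cell type markers. Alternatives covered scaling, pseudocount, filter, left-out libraries, the replicate number as a block and limma-voom. Same-numbered libraries of the groups had deviations correlating at 0.17, -0.09 and -0.07, so the numbers were not taken as pairs. Python 3.11.15 was used for tables and figures.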

Additional observations from a re-analysis of the deposited data

How the results depend on the processing

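No member passed the threshold under any of 17 alternatives each; adjusted p ran from 0.0553 to 0.965, and 121 of 136 estimates kept their direction. With graded control rows, miR-106a-5p/miR-17-5p stood at 1.49, miR-106b-5p at 1.10, miR-19a-3p at 1.04, miR-20a-5p/miR-20b-5p at 1.18, miR-25-3p at 1.64, miR-93-5p at 1.47 and miR-19b-3p at 0.99, all opposite in sign to the authors' scaling. miR-25-3p was 0.026 with the median of ratios and 0.036 with the 100 highest miRNAs. miR-92a-3p was -0.33 with the miRNA total and -0.45 with the mRNA rows. The median of the members was -0.78 with the miRNA total, 1.32 with the graded control rows and -0.90 with the mRNA rows. Leaving out each library in turn, it ran from -0.48 to -0.11, miR-19a-3p from -1.12 to 0.28, miR-25-3p from -0.14 to 0.052 and miR-92a-3p from -0.050 to 0.29. The miR-19 seed against the miR-17 seed then ran from -0.56 to 0.13, and the miR-106b-25 cluster against the other clusters from -0.05 to 0.19. Members with groups apart numbered 2 to 5 without 1 library (4 without control siRNA replicate 3, 5 without siPRKRA replicate 3). They numbered 1 with the 100 highest miRNAs, 0 with the miRNA total and 4, higher with siPRKRA, with the graded control rows. The share over all tested miRNAs was read only with all 6 libraries (15.1% lower, 12.3% higher) and without siPRKRA replicate 2 (26.4% lower). These counts were therefore not read as a result about the members.

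Calls over all tested miRNAs, 0 with the authors' scaling, numbered 22 with the graded control rows, 1 with the mRNA rows, 3 with a pseudocount of 30, 9 of 132 with a filter at 10, 17 at an unadjusted p under 0.05, and 0 to 4 without 1 library (2 without control siRNA replicate 3, 4 without siPRKRA replicate 2). Without a filter 635 of 800 rows were called, of which 602 lay at the floor in all libraries, a floor that differs between groups. The cause of the other shifts was not tested. With the replicate number as a block, a pairing not borne out by the libraries, 0 were called and the members' median was -0.34. limma-voom on counts before scaling, chosen after seeing the data, called 0 and gave a median of -0.19. The planned edgeR test was not run, since no deposited column holds counts.

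Each siPRKRA estimate rests on 3 libraries of which 1 stands apart, so intervals are wide. A probe near the floor, such as miR-18a-5p, has only a bound there. For the tested members, control libraries rested on fewer counts than siPRKRA replicates 1 and 3. By contrast, siPRKRA replicate 2 rested on fewer counts than every control library for miR-19a-3p, miR-19b-3p, miR-106b-5p, miR-20a-5p/miR-20b-5p and miR-93-5p. It rested on more for miR-25-3p and miR-92a-3p and lay within the control range for miR-106a-5p/miR-17-5p. Intervals of counts were not formed because the subtracted background is unknown.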
